A study of Mus musculus with 1111 samples.

Results

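Tmem119, Cx3cr1, Olfml3, Fcrls, Slc2a5, Selplg and Sparc are surface or secreted genes by which resting ("homeostatic") microglia of the mouse brain are recognised. These 7 genes were named as a list and found by gene symbol among the 35583 genes of the count tables, where each stands once. Their levels were followed in brain microglia of mice aged 3 months, isolated 20 hours after the animals had received plasma proteins carrying the fluorescent dye NHS-Atto647N. Cells were sorted into wells by the plasma protein signal they held, in groups labelled plasma intensity none, low and high, called plasma none, plasma low and plasma high here. All 3 groups carry the same injection, and strain and sex are not stated in the sources used here. Each sample is 1 cell read by Smart-seq2, a plate method that copies whole transcripts.

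Microglia are the resident macrophages of the brain. In the undisturbed adult brain they share a set of genes for sensing neurons and tissue, and lower levels of many of these genes are a known accompaniment of injury, ageing and disease. TMEM119 is a membrane protein of microglia whose role is not settled. CX3CR1 is the receptor for fractalkine, which neurons make. SELPLG carries the sugars by which selectins hold white blood cells, SLC2A5 is a fructose transporter, and FCRLS is an Fc receptor-like molecule. OLFML3 and SPARC are secreted, the first an olfactomedin-like matrix protein and the second a matrix protein that binds collagen.

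Of 1111 labelled cells, 1045 matched a column of counts, and 987 of these passed a minimum of 50000 reads and 500 genes. Of these, 35.1% were plasma none, 35.6% plasma low and 29.4% plasma high. No label names an animal. The titles give a TH number (1, 2 or 3) without saying what it stands for. Each group was therefore treated as 1 sample of cells, and no test between groups was made. Reads were summed per group and TH number, giving 9 sums of at least 93 cells each and 21309816 to 49323522 reads. Every ± below is an SD over the 3 TH numbers, a spread of sets of wells that may be technical and is not a spread between animals. Levels of sums are in CPM (reads of a gene per 1000000 reads, with library sizes scaled by TMM). Log2 ratios are of CPM + 1 within a TH number, averaged over the 3. Quartiles, medians, percentiles and coefficients of variation over cells use CPM of each cell's own reads, without TMM.

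Plasma none, low and high cells lay in well columns 1 to 8, 9 to 16 and 17 to 23 of the plate in every TH number, so well position and plasma signal cannot be told apart. In all 3 TH numbers plasma high cells had more reads and a larger mitochondrial share than plasma none cells. The median reads per cell were 175699 to 277222 in plasma none and 228822 to 404743 in plasma high, and the median mitochondrial share was 0.548 to 0.659% and 0.751 to 1.15%. The part these differences play in the levels below was not tested. The 9 microglia markers, none of them among the 7 genes, were all read, and summed to 43307 to 46238 CPM for plasma none, 42535 to 49809 CPM for plasma low and 43830 to 51410 CPM for plasma high. The 7 border macrophage markers summed to at most 1.34, 22.2 and 4.50 CPM in those groups, with Cd163, Lyve1, Pf4, F13a1 and Ms4a7 at 0. The 6 monocyte markers summed to at most 8.42 CPM in any sum, the 7 endothelial markers to at most 29.5 CPM, and the 7 lymphocyte markers were at 0. The 6 neutrophil markers were read through Csf3r alone, at 316.6 to 437.2 CPM over all groups, with the other 5 at 0. The 6 astrocyte markers summed to 224.2 to 377.7 CPM in plasma none, 218.3 to 313.2 CPM in plasma low and 214.2 to 244.04 CPM in plasma high. Nearly all of this was Slc1a3, a glutamate transporter, with Gja1 and Aldh1l1 at 0 in every group. The 6 oligodendrocyte markers, mostly Cnp, summed to 104.6 to 190.2, 147.3 to 201.9 and 173.7 to 266.3 CPM, with Mog and Cldn11 at 0. The 4 neuron markers reached at most 0.646, 2.32 and 57.98 CPM, the last in 1 sum through Snap25, the 3 red cell markers at most 4.65 CPM and the 6 mural and fibroblast markers at most 0.0211 CPM. The part of these marker levels in the results was not tested.

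All 7 genes passed the filter on level in every comparison. In mm10 coordinates, Tmem119 (ENSMUSG00000054675) lies at chr5:113793729-113800516 on the minus strand. Selplg (ENSMUSG00000048163) is the next gene of 20 CPM or more towards higher coordinates, at chr5:113818536-113832644 on the same strand, 18020 bases away. On the other side of Tmem119, Iscu lies nearer, 15441 bases away. Cx3cr1 (ENSMUSG00000052336) lies at chr9:119901616-120069879, Olfml3 (ENSMUSG00000027848) at chr3:103722222-103738001, Fcrls (ENSMUSG00000015852) at chr3:87250758-87263738 and Sparc (ENSMUSG00000018593) at chr11:55394500-55423183, all on the minus strand. Slc2a5 (ENSMUSG00000028976) lies at chr4:150119283-150144169 on the plus strand. The annotated span of Cx3cr1 overlaps 9 other genes, of which only the antisense gene Gm33858 shares exon bases with it, 78 in all. Gm33858 had 78.7 CPM on average over the groups. Whether the counting used strand is not given in the sources used here, so reads of that shared stretch could belong to either gene.

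The promoters of 5 of the genes are in the RefSeq table (GRCm38.p6), and 3 are shown. Of the 250 bases before the start, 0 lay outside annotated exons in Cx3cr1, and in Sparc the longest such stretch was 7 bases. Of the 3 genes shown, Slc2a5 was lower in plasma high cells in every TH number, while Olfml3 and Fcrls had both signs. Each sequence is the longest stretch of the 250 bases that lies in no annotated exon of its gene. Longer stretches were cut to the 100 bases nearest the start site. The sequences lie at chr4:150119183-150119282 (plus strand), chr3:103738002-103738101 (minus strand) and chr3:87263600-87263677 (minus strand). Capitals mark the GC box GGGCGG and the PU.1 motif GAGGAAG, searched on both strands after the sequences had been seen.
Slc2a5: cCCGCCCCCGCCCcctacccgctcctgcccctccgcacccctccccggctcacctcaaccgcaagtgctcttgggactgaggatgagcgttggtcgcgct
Olfml3: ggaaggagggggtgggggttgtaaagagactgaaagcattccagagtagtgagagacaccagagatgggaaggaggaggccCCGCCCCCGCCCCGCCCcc
Fcrls: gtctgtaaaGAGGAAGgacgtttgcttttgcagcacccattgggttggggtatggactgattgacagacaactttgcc

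The GC box stood 3 times in the 250 bases before the start of Slc2a5 and 3 times before that of Olfml3, and was in 32.7% of 32841 promoters of that length. PU.1 is the master regulator of macrophage genes. Its motif stood once, before the start of Fcrls where the capitals mark it, and not in the windows of the other 4 genes, against 10.6% of all promoters. TGTGGTT, the motif of RUNX factors, also stood once, in Fcrls, and was in 4.40% of all promoters. TATAAA, the TATA box, stood in Fcrls alone and in 12.4% of all. The RUNX and TATA box matches in Fcrls lay inside annotated exons, while its PU.1 match and the GC boxes lay outside. The 250 bases searched thus included exon sequence, in Cx3cr1 throughout, so a motif found or missing there does not describe promoter sequence alone. TGAGTCA, the AP-1 motif, was in none of the 5 and in 4.46% of all. GC content over the 250 bases was 66.4% for Slc2a5, 57.6% for Olfml3, 54% for Sparc, 53.6% for Cx3cr1 and 46.8% for Fcrls, beside a median of 52.4% over all promoters. A match describes letters and not a bound site. Any part of these motifs in the levels below was not tested.

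Summed over the 7 genes, the level was 27274, 28219 and 26368 CPM in plasma none for TH numbers 1, 2 and 3, then 24738, 27801 and 23599 CPM in plasma low, and 23202, 25141 and 23481 CPM in plasma high. Every plasma high sum lay below every plasma none sum, and plasma low spanned both. The group means were 27287 ± 926, 25379 ± 2173 and 23942 ± 1048 CPM.

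Plasma high cells held less Tmem119 and Slc2a5 than plasma none cells in every TH number, and smaller differences the same way were seen for Selplg, Cx3cr1 and Sparc. Olfml3 and Fcrls had both signs. No gene reached a 2-fold difference. By the size rule (at least 2-fold on average, with 1 sign in 3 of 3 TH numbers), 0 of 7 were called in this comparison, beside 5.15% of 5534 genes of 20 CPM or more. Lower in 3 of 3 TH numbers were 5 of the 7, and higher in 3 of 3 were 0. Among all 806 genes of 200 CPM or more, 19.6% were lower and 25.4% higher in 3 of 3. Over all 5534 genes the shares were smaller, 13.8% lower and 18.8% higher. The 7 genes stand well above 200 CPM, with a lowest group mean of 643 CPM (Slc2a5 in plasma high). Neither background is matched to their level. The median log2 ratio of the 7 genes was -0.18 ± 0.067, and that of the 806 genes was 0.031. The 7 genes were chosen as a list with results of these data known, so these shares describe them and test nothing.

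**Figure D1:**
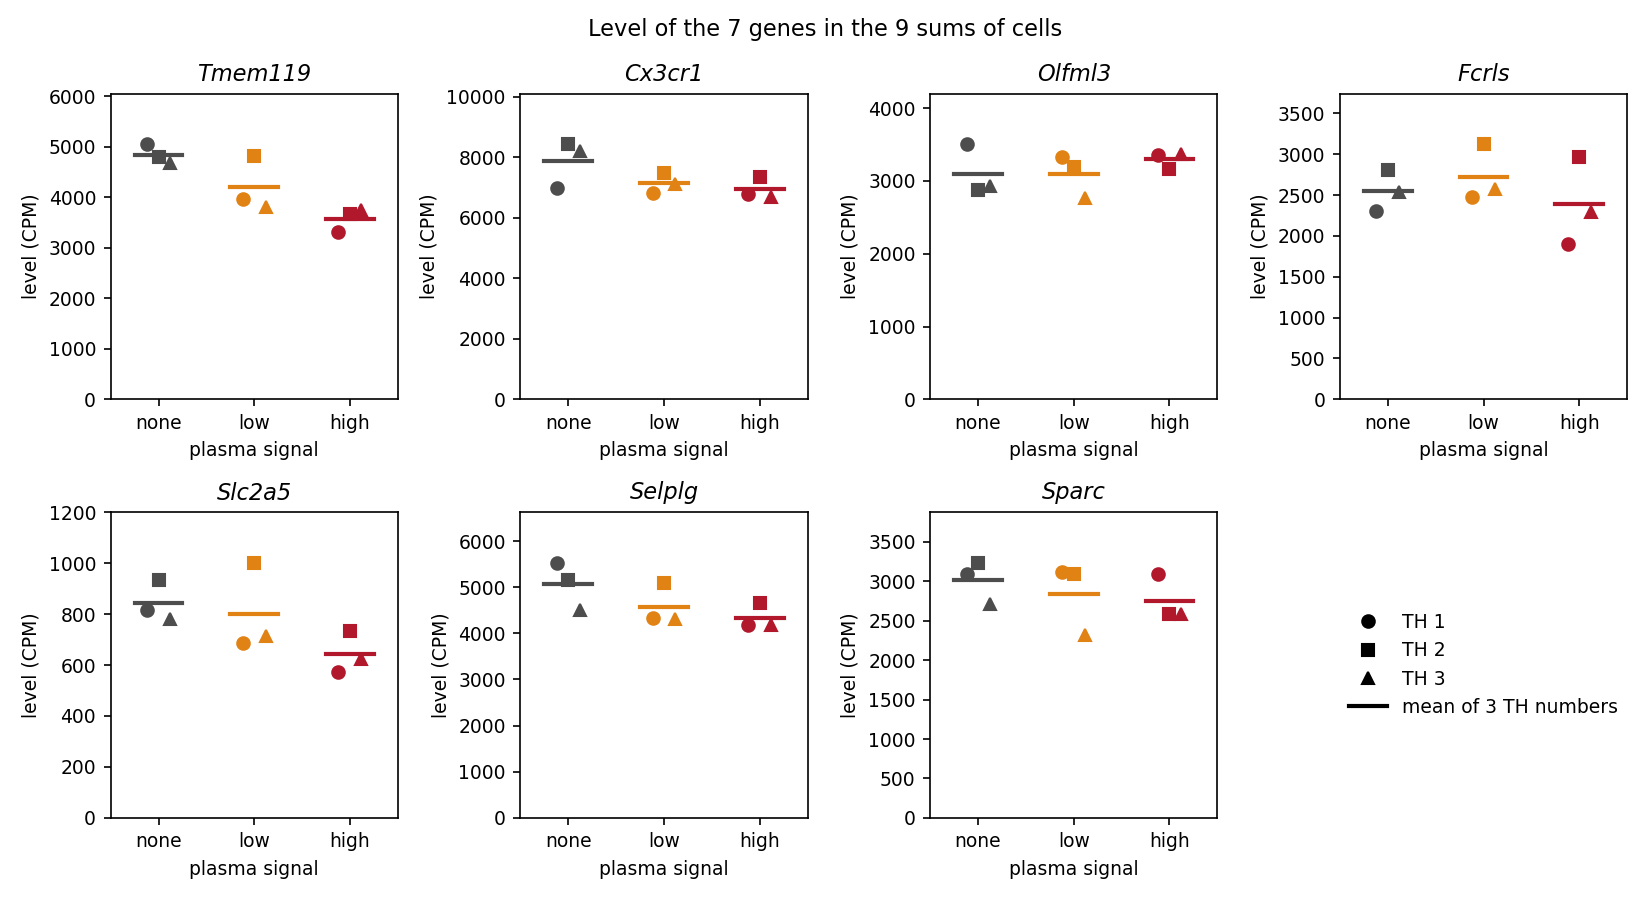
Level of each gene (CPM, from 0) in each plasma group, with 1 point per TH number and a line at their mean. For Tmem119 and Slc2a5 every plasma high point lies below every plasma none point, while the Olfml3 and Fcrls points overlap.

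Between plasma high and plasma none, Tmem119 differed most among the 7. It stood at 5047, 4797 and 4686 CPM in plasma none, at 3965, 4817 and 3816 CPM in plasma low and at 3321, 3667 and 3740 CPM in plasma high. The plasma high sums lay below all 3 plasma none sums and below all 3 plasma low sums, while plasma none and plasma low overlapped because TH 2 of plasma low stood as high as plasma none. Against plasma none, plasma high had log2 ratios of -0.60, -0.39 and -0.33, with a mean of -0.44 ± 0.15 or 0.738 times the level. From the lowest ratio up, this put Tmem119 at rank 86 of the 806 genes of 200 CPM or more. Pooled over TH numbers, the level was 4826 CPM in plasma none (95% Poisson interval 4811 to 4841, counting error only) and 3568 CPM in plasma high (3557 to 3580).

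The lower Tmem119 level ran through the whole range of cells. From plasma none over plasma low to plasma high, the first quartile over cells was 3263, 2546 and 2145 CPM. The median was 4543, 3893 and 3320 CPM, and the 90th percentile 7863, 6893 and 6155 CPM. After each cell was thinned to 50000 reads, nearly every cell still had a Tmem119 read: 99.4% of plasma none cells, 98.6% of plasma low and 98.3% of plasma high, with exact binomial intervals of 97.9 to 99.9%, 96.7 to 99.5% and 96.02 to 99.4%. These intervals cover counting error over cells only, and shares this near 100% leave little room to differ.

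Slc2a5, the fructose transporter, had the lowest level of the 7. It stood at 817, 935 and 780 CPM in plasma none, at 688, 1001 and 713 CPM in plasma low and at 573, 733 and 622 CPM in plasma high. Again the plasma high sums lay below all plasma none sums, and plasma low spanned the range of plasma none. Plasma high had log2 ratios to plasma none of -0.51, -0.35 and -0.33, with a mean of -0.40 ± 0.10, or rank 100 of 806. With each cell weighted equally the ratio was -0.26, and with each cell thinned to 50000 reads it was -0.25. In TH 1 of plasma high, 1 cell gave 14.95% of all Slc2a5 reads.

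Slc2a5 was also the gene most often without a read. Of cells thinned to 50000 reads, 75.4% of plasma none had one (95% interval 70.5 to 79.9%), 72.6% of plasma low (67.7 to 77.2%) and 68.6% of plasma high (62.9 to 73.9%). These intervals, which cover counting error over cells only, overlap. By TH number, the thinned shares were 75%, 74.3% and 76.9% in plasma none and 74.3%, 67.7% and 63.4% in plasma high. The plasma high share was the lower one in each TH number, by under 1 percentage point in TH 1. Without thinning the shares were 78.9%, 73.8% and 71.03%. In cells with a read, the median was 46.5 ± 10.04 reads of 50000 in plasma none and 40.7 ± 2.52 in plasma high. That difference is within the spread of plasma none over TH numbers. By TH number the medians were 42, 58 and 39.5 reads in plasma none and 41, 43 and 38 in plasma high, lower in each.

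Selplg, the selectin ligand beside Tmem119 on chromosome 5, stood at 5524, 5160 and 4497 CPM in plasma none and at 4174, 4660 and 4186 CPM in plasma high. It was lower in plasma high in each TH number, but the groups overlapped, since TH 2 of plasma high stood above TH 3 of plasma none. The mean log2 ratio was -0.22 ± 0.16, and -0.13 without TH 1, where it was -0.40. Plasma low stood at 4326, 5099 and 4305 CPM. Every plasma none cell had a Selplg read after thinning, as did 99.1% of plasma low and 99.3% of plasma high cells.

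Cx3cr1, the fractalkine receptor, had the highest CPM of the 7. It stood at 6978, 8421 and 8222 CPM in plasma none, at 6824, 7482 and 7112 CPM in plasma low and at 6796, 7355 and 6680 CPM in plasma high. Each TH number had its highest level in plasma none and its lowest in plasma high, yet the groups overlapped, because TH 1 of plasma none was low. In plasma high the log2 ratios to plasma none were -0.04, -0.20 and -0.30, with a mean of -0.18 ± 0.13, and -0.12 without TH 3. Pooled over TH numbers, the median over cells was 7566, 6933 and 6365 CPM from plasma none to plasma high. In TH 2 alone it was 7858, 6604 and 6996 CPM, so that plasma high stood above plasma low there.

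Of the secreted proteins, Sparc stood at 3100, 3234 and 2717 CPM in plasma none and at 3088, 2591 and 2585 CPM in plasma high. The mean log2 ratio was -0.13 ± 0.17. The sign was the same in 3 of 3, but in TH 1 the difference was -0.01, and without TH 2 the mean was -0.04. Its SD exceeded its mean, so no difference larger than the spread was seen.

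In plasma high against plasma none, Olfml3 alone of the 7 had a mean ratio above 0. It stood at 3501, 2870 and 2928 CPM in plasma none, at 3333, 3190 and 2764 CPM in plasma low and at 3351, 3169 and 3377 CPM in plasma high. Plasma high had a mean log2 ratio to plasma none of 0.10 ± 0.14, negative in TH 1 and positive in TH 2 and TH 3. The mean was 0.17 without TH 1 and 0.04 without TH 3. The median over cells was 2752 CPM for plasma none, 2889 for plasma low and 3005 for plasma high. These values show no difference beyond the spread between TH numbers.

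Fcrls stood at 2306, 2802 and 2538 CPM in plasma none, at 2480, 3119 and 2568 CPM in plasma low and at 1899, 2966 and 2291 CPM in plasma high. TH 2 was the highest in each group, and the groups overlapped. Its mean log2 ratio between plasma high and plasma none was -0.12 ± 0.18, with both signs, and moved to -0.03 without TH 1 and to -0.21 without TH 2. An Fcrls read was found in 91.3% of thinned plasma none cells, 94.9% of plasma low cells and 89.7% of plasma high cells, with exact intervals of 87.9 to 94.1%, 92.02 to 96.9% and 85.6 to 92.9%. Fcrls varied more from cell to cell than Selplg: its coefficient of variation over plasma none cells was 0.928, beside 0.434 for Selplg, 0.447 for Cx3cr1 and 0.483 for Tmem119. Slc2a5, at 0.994, varied most.

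**Figure D2:**
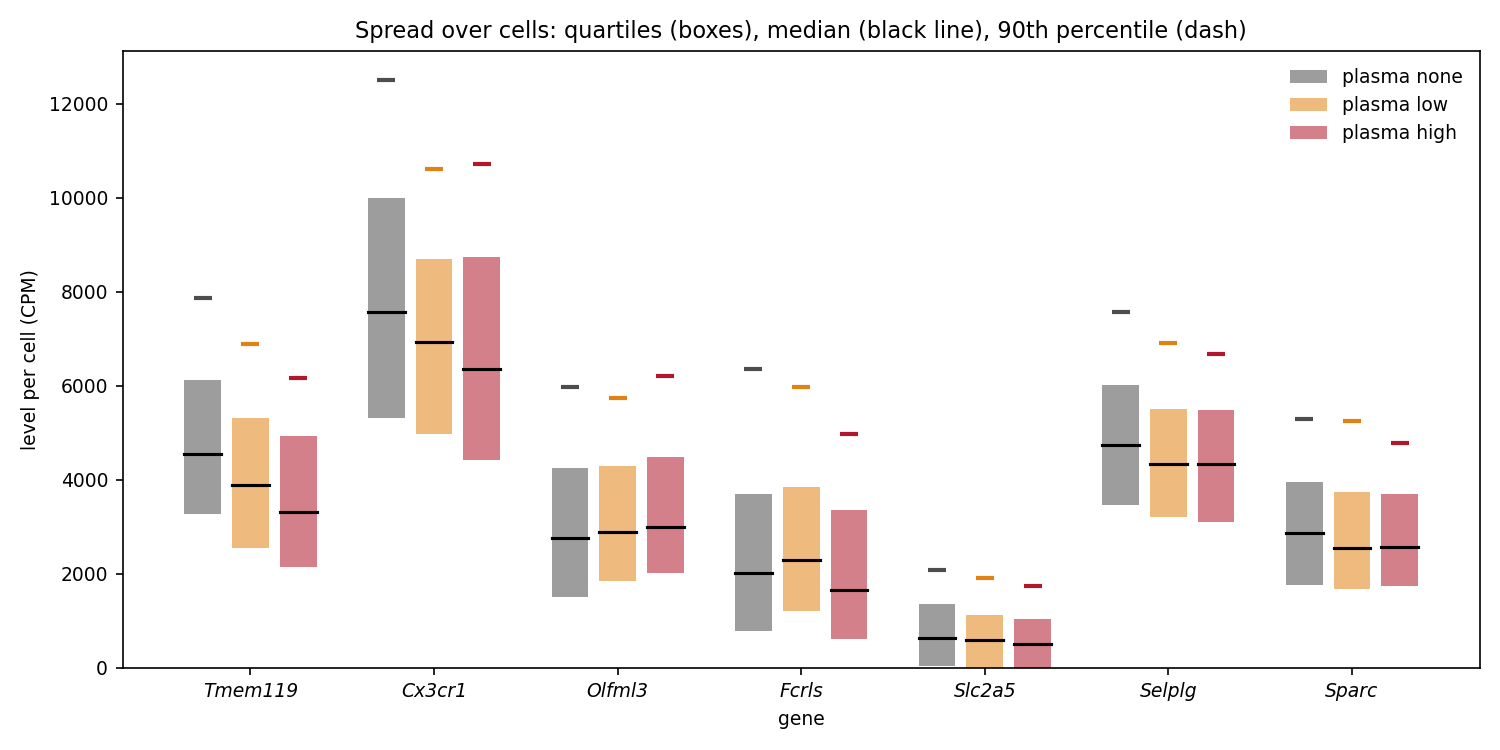
Level per cell (CPM, from 0) over the cells of each group: boxes span the quartiles, black lines are medians and dashes the 90th percentile. For Tmem119 all of these are lower in plasma high than in plasma none, and for Olfml3 they are higher. The Olfml3 first quartile is 1499 CPM in plasma none and 2012 CPM in plasma high, and its median 2752 and 3005 CPM.

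The ratio of 2 genes within a sum does not depend on how the sums are scaled. Tmem119 relative to Olfml3 was lower in plasma high than in plasma none, with log2 differences of -0.54, -0.53 and -0.53 in TH 1, 2 and 3, a mean of -0.53 ± 0.0058. This pair was singled out after its values were seen, as the one with the smallest spread of 21 pairs. Tmem119 relative to Selplg was lower too, at -0.20, -0.24 and -0.22. Olfml3 relative to Slc2a5 was higher by 0.45, 0.49 and 0.53, and Olfml3 relative to Selplg by 0.34, 0.29 and 0.31. Tmem119 relative to Slc2a5 had -0.04 ± 0.048 with both signs, no difference beyond the spread. Within the same sums, Tmem119 and Olfml3 thus differed unequally between the groups.

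Between plasma low and plasma none the median log2 ratio of the 7 genes was -0.09 ± 0.068, beside 0.019 over 779 genes of 200 CPM or more. It was -0.04 without TH 1. With the cell holding the most reads of a gene left out of each sum it was -0.19, beside -0.20 for plasma high against plasma none in the same setting. Cx3cr1 (-0.14 ± 0.093) and Selplg (-0.14 ± 0.18) were lower in 3 of 3 TH numbers, Fcrls (0.09 ± 0.070) was higher in 3 of 3, and the other 4 had both signs. Without TH 1 the Selplg mean was -0.04, and with the top cell left out the Fcrls mean was 0.0053. In the background of 779 genes, 14.4% were lower and 17.2% higher in 3 of 3. The size rule called none of the 7, beside 2.64% of 5489 genes. Tmem119 had -0.35, 0.01 and -0.30, a mean of -0.21 ± 0.19 that was -0.32 without TH 2, and Slc2a5 had -0.25, 0.10 and -0.13. In TH 2 the plasma low sums of these genes stood as high as plasma none or higher.

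Between plasma high and plasma low, which share the groups of the other comparisons, Tmem119, Cx3cr1, Fcrls, Slc2a5 and Selplg were lower in 3 of 3. None was higher in 3 of 3, and the size rule called none. The background over 801 genes was 13.2% lower and 17.4% higher, and the size rule called 3.28% of 5709 genes. Slc2a5 had a mean log2 ratio of -0.30 ± 0.13, at rank 68 of 801 and the lowest of the 7. With each cell weighted equally it was -0.12, and with cells thinned -0.11, where Fcrls stood lowest at -0.23 in both settings. Tmem119 had -0.26, -0.39 and -0.03, a mean of -0.23 ± 0.18 that was -0.14 without TH 2. Fcrls had -0.21 ± 0.16, and -0.12 without TH 1. Cx3cr1 and Selplg differed by only -0.04 ± 0.044 and -0.07 ± 0.049. The median of the 7 was -0.07 ± 0.049, and 0.01 when the cell with the most reads of a gene was left out of each sum.

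**Figure D3:**
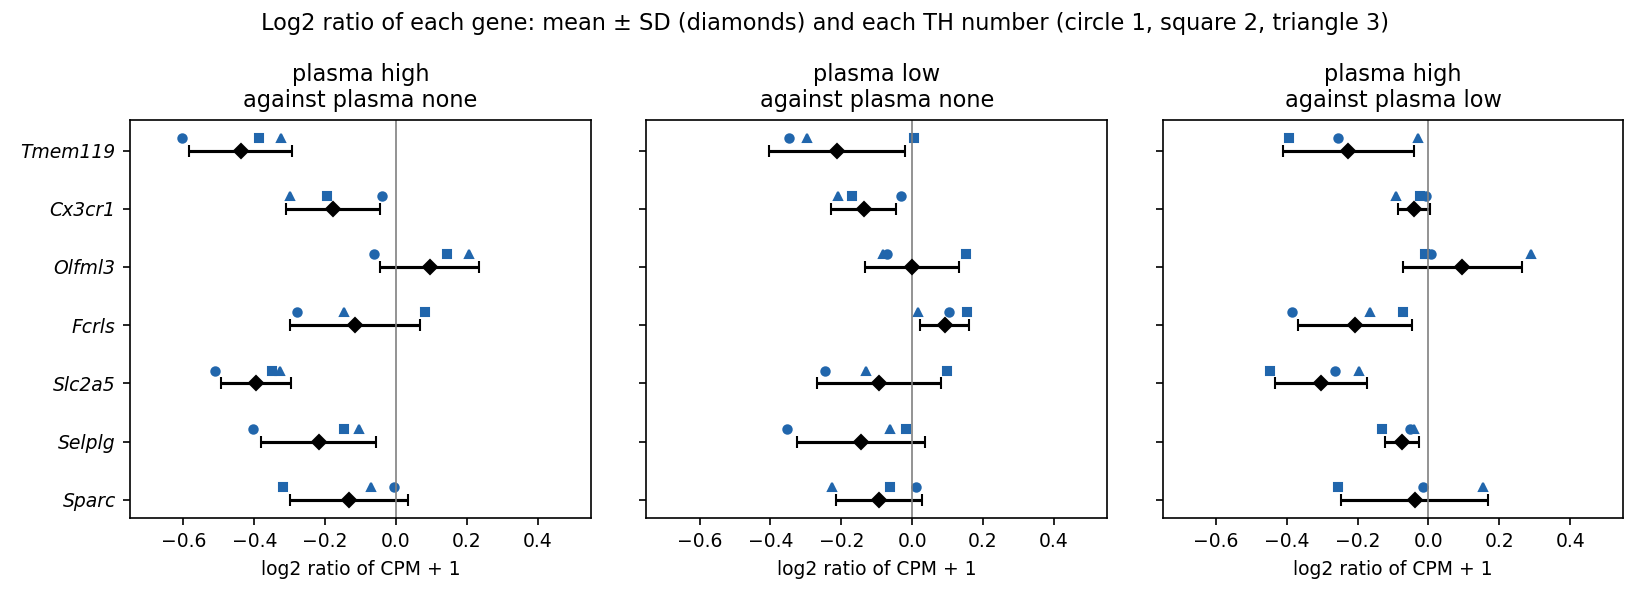
Log2 ratio of CPM + 1 for each gene in the 3 comparisons; diamonds and bars are the mean ± SD over 3 TH numbers, and blue symbols the single TH numbers. In plasma high against plasma none, Tmem119 and Slc2a5 lie farthest below 0 (-0.44 and -0.40) and Olfml3 lies above 0.

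Levels were divided by gene length in kilobases, as a rough way to compare different genes. The length counts every base in any annotated exon of the gene, so the order of genes depends on the annotation. Tmem119 led in plasma none with 2092 ± 79.9 CPM per kb. Cx3cr1 followed with 1748 ± 173.5, then Selplg with 1185 ± 121.9, Fcrls with 1092 ± 106.2, Sparc with 796 ± 70.8, Olfml3 with 503 ± 56.6 and Slc2a5 with 248.1 ± 23.9. Of the neighbours in this order, only Selplg and Fcrls overlapped over TH numbers. In plasma high, Tmem119 (1545 ± 96.7 CPM per kb) and Cx3cr1 (1541 ± 80.1 CPM per kb) stood level and overlapped. Selplg and Fcrls overlapped there too, as did Fcrls and Sparc. In plasma low, Fcrls (1166 ± 148.4 CPM per kb) stood above Selplg (1071 ± 105.9 CPM per kb), and their values overlapped, as did those of Tmem119 and Cx3cr1.

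Most cells of every group held the whole set. After thinning to 50000 reads, 66.5% of plasma none cells, 67.2% of plasma low and 61.7% of plasma high cells had a read of all 7. At most 3 of the 7 were read in 0 plasma none cells, 1 plasma low cell and 2 plasma high cells. A count of 0 among the plasma none cells allows a share of up to 0.867%. No cell of any group had fewer than 2 of the 7.

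Across cells, the 7 genes varied together only weakly. Spearman correlations of CPM were computed within each of the 9 sets of at least 93 cells and averaged. Each is a description over cells that share libraries and depth scaling. Over the 21 pairs the mean correlation ran from 0.0048 to 0.28, with a median of 0.11, and 4 pairs were positive in 9 of 9 sets. The highest was Tmem119 with its chromosomal neighbour Selplg, at 0.28 (0.20 to 0.41 over sets, and 0.27 after thinning). Correlations this weak are given as a description only.

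Among 635 genes compared, those most like a member were chosen by a mean correlation of at least 0.2 and a positive value in all 9 sets. Besides Selplg, Tmem119 had P2ry13, an ADP receptor of microglia (0.20). Cx3cr1 had the predicted gene Gm15635 (0.23), P2ry13 (0.22) and Csf1r, the receptor on which microglia depend for survival (0.22). Among those of Selplg was Tmem119. Sparc had Cst3, the secreted protease inhibitor cystatin C (0.30), and C1qc and C1qa, subunits of complement C1q (both 0.22). Olfml3, Fcrls and Slc2a5 had none.

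The other genes of the homeostatic set did not stand lower as a list. In a list of 20 such genes, all measured, the median log2 ratio between plasma high and plasma none was 0.04 ± 0.12, with 5 higher and 3 lower in 3 of 3 TH numbers and 0 past the size rule. Over all 5534 genes of 20 CPM or more the median was 0.054, with 18.8% higher and 13.8% lower in 3 of 3, the background for the counts of this list and those below. Adgrg1, an adhesion receptor, stood highest with 302.4 ± 29.8 CPM in plasma none and 433 ± 68.5 in plasma high, a log2 ratio of 0.51 ± 0.28. Upk1b, a tetraspanin, stood lowest at 92.2 ± 37.2 and 61.3 ± 42.1 CPM, a log2 ratio of -0.71 ± 0.88 whose size came from TH 3 (-1.72). The other homeostatic genes higher in 3 of 3 were Csf1r (0.31 ± 0.084), Cst3 (0.33 ± 0.084), Lag3 (0.40 ± 0.11) and Bin1 (0.17 ± 0.035). The purinergic receptors P2ry13 (-0.24 ± 0.15) and P2ry12 (-0.06 ± 0.048) were lower in 3 of 3.

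**Figure D4:**
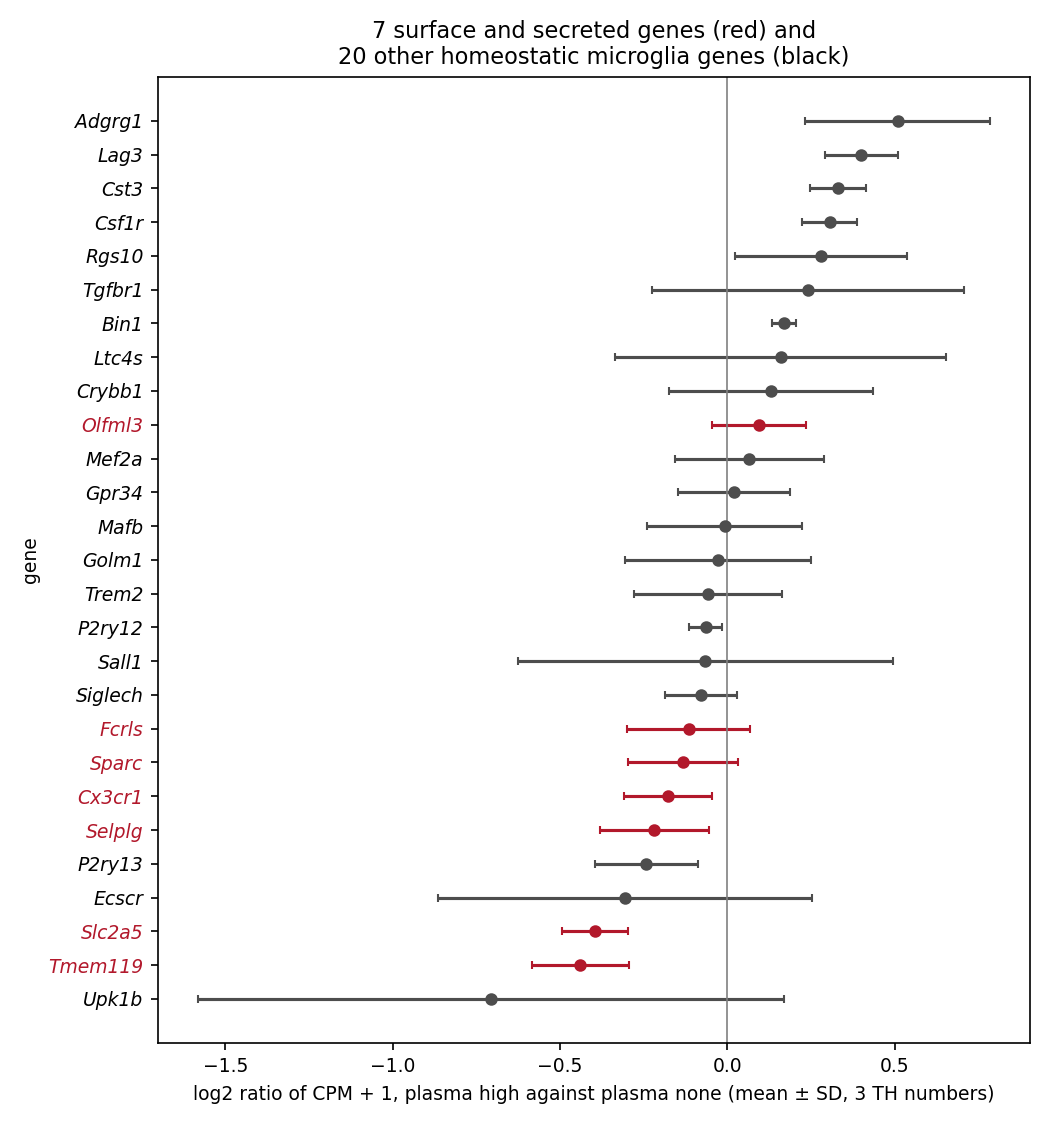
Log2 ratio of CPM + 1 in plasma high against plasma none, mean ± SD over 3 TH numbers, for the 7 genes (red) and 20 other homeostatic genes (black), in order of the mean. Of the red points 6 lie below 0, with Tmem119 (-0.44) and Slc2a5 (-0.40) lowest among them, while 11 of the 20 black points lie above 0.

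Lists of genes that work with the members or belong to their families, with no such list for Tmem119, gave few differences of 2-fold. Of 8 genes around the fractalkine receptor, 7 were measured, with 3 higher and 1 lower in 3 of 3, a median of 0.25 ± 0.089. Gnai3, an inhibitory G protein subunit, was the only one past the size rule, at 45.1 ± 13.7 CPM for plasma none, 64.96 ± 15.9 CPM for plasma low and 146.3 ± 33.3 CPM for plasma high, a log2 ratio of 1.70 ± 0.38. Its receptor partner Cx3cr1 was lower in the same cells (-0.18). Adam10, a protease that sheds fractalkine, stood lowest at -0.11 ± 0.12.

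Of 12 genes that make or bind selectin ligands, 4 were measured, 1 higher and 1 lower in 3 of 3. B4galt1, a galactosyltransferase, stood at 783 ± 194.4 CPM in plasma none and 585 CPM in plasma high, a log2 ratio of -0.41 ± 0.17. Msn, the moesin that ties surface proteins to actin, stood at 336.4 ± 100.3 and 525 ± 66.2 CPM, a log2 ratio of 0.68 ± 0.60, of which TH 1 gave 1.32. Selplg itself had -0.22.

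Of 15 genes of hexose transport and fructose use, 9 were measured, 3 higher and 1 lower in 3 of 3, with a median of 0.53 ± 0.14. Sord, sorbitol dehydrogenase, which makes fructose from sorbitol, passed the size rule with 15.7 ± 11.8 CPM in plasma none and 49.5 ± 8.26 in plasma high, a log2 ratio of 1.87 ± 1.33, of which TH 2 gave 3.35. Its level in plasma none lies under the 20 CPM of the filter, which it passed only through plasma high, so its call was favoured by the filter. The median and the count of higher genes of this list include Sord and were favoured in the same way. Akr1b3, aldose reductase, stood lowest at -0.41 ± 0.82. The fructose transporter Slc2a5 was lower (-0.40), whereas the glucose transporter Slc2a1 was higher in 3 of 3 (0.74 ± 0.082, 37.3 ± 11.5 to 63.6 ± 21.6 CPM). Khk, which phosphorylates fructose, had -0.07 ± 0.078.

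Of 12 genes of the SPARC family and its partners, 2 were measured: Itgb1, the integrin beta 1 chain, with 0.47 ± 0.42, and Stab1, a scavenger receptor that takes up SPARC, with -0.23 ± 0.82, both with both signs. Of 8 olfactomedin family genes none passed the filter. Olfml2b was read in too few cells to pass and stood at 25.9 ± 10.4 CPM in plasma none and 39.2 ± 25.2 in plasma high. Of 17 genes of the disease-associated state, 11 were measured, 9 higher and 0 lower in 3 of 3, with a median of 0.42 ± 0.064. In plasma low against plasma none 10 were measured, so not all 11 would pass the filter without plasma high. The counts, calls and median of this list may thus be favoured by the filter. Apoe, the lipid carrier, stood at 99.5 ± 70.3 and 1196 ± 996 CPM, and Lyz2, lysozyme, at 244.8 ± 53.7 and 505 ± 78.2 CPM. Lpl, lipoprotein lipase, had a log2 ratio of 3.00 ± 2.92, with an SD close to its mean. It passed the size rule as Apoe and Lyz2 did, while Ctsl, a cathepsin, stood lowest at -0.05 ± 0.21.

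Of 5 Fc receptor-like genes 1 was measured, and it is also the nearest gene of 20 CPM or more to Fcrls. Fcrl1 lies 112649 bases from Fcrls and stood at 88.8 ± 54.6 CPM in plasma none and 78.4 ± 17.5 CPM in plasma low. Plasma high had log2 ratios to plasma none of -1.91, -0.90 and -0.46, a mean of -1.09 ± 0.74 that passed the size rule. Against plasma low its mean was -1.07 ± 0.88, also past the size rule. TH 2 and TH 3 of plasma high against plasma none lay under 2-fold. Of the other measured neighbours within 200 kb, Atox1, a copper chaperone next to Sparc, was higher in 3 of 3 (0.75 ± 0.43). The remaining ones, Iscu, Rpsa, Hipk1, Gpr157, Eno1, Coro1c and Slc36a1, had both signs.

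Since the groups lie in blocks of well columns, levels were also read by column. The mean Tmem119 level per cell ran from 4300 to 5752 CPM over the 8 columns of plasma none, from 3578 to 4537 CPM over the 8 of plasma low and from 3158 to 4179 CPM over the 7 of plasma high. Every plasma high column thus lay below every plasma none column. The first and last columns of plasma none, 1 and 8, had 4638 and 4572 CPM. Those of plasma low, 9 and 16, had 3911 and 4537 CPM, and those of plasma high, 17 and 23, had 3352 and 4053 CPM. Well position and plasma signal cannot be told apart here, and the part of position was not tested. The Slc2a5 columns overlapped between groups, from 672 to 1110 CPM in plasma none and from 561 to 892 CPM in plasma high. Olfml3 columns ran from 2492 to 3661 CPM in plasma none and from 2740 to 3825 CPM in plasma high.

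**Figure D5:**
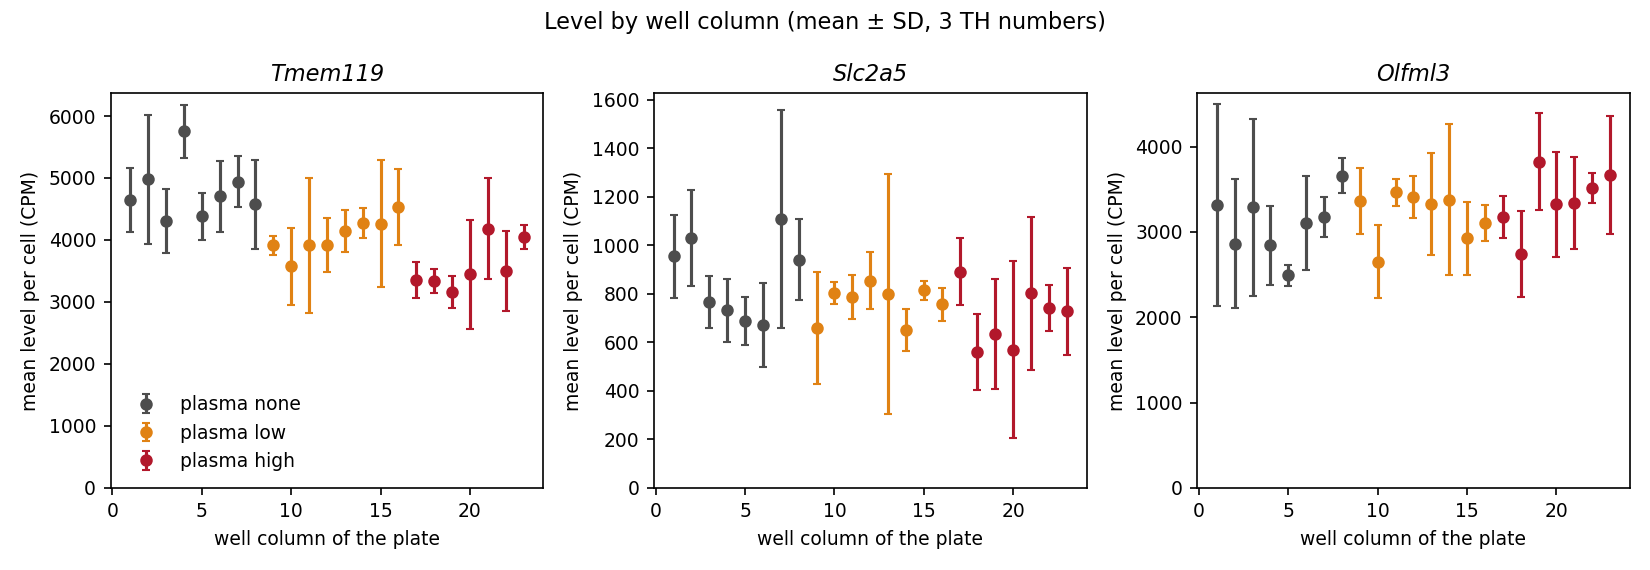
Mean level per cell (CPM, from 0) of Tmem119, Slc2a5 and Olfml3 in each well column, mean ± SD over 3 TH numbers, coloured by group. Tmem119 columns of plasma high (3158 to 4179 CPM) all lie below those of plasma none (4300 to 5752 CPM), while Slc2a5 and Olfml3 columns overlap.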

How the data were processed

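Smart-seq2 libraries of single microglia were analysed from the deposited count tables, which hold reads per gene and cell. In 1 column the deposited values were estimated counts, since 2 of them were not whole, and they were rounded. The submitters' processing notes name bcl2fastq, Trim Galore, STAR 2.5.3a, Seurat and the build mm10, with no role. The counting tool and strand setting are not given in the sources used here. Per the file headers, columns of TH 2 and TH 3 came from alignments reduced to top hits, and those of TH 1 carry no such note. For that reason log2 ratios were taken within a TH number. Statements on overlap of groups, and levels pooled over TH numbers, set different TH numbers side by side and carry this difference. Of the gene IDs, 35397 have the same coordinates in GENCODE M21, whose exons gave lengths. Columns not used numbered 0.

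Cells with at least 50000 reads and 500 genes were summed into 9 sums of group and TH number, scaled by TMM over all genes (edgeR 4.0.16, R 4.3.3) and compared with a pseudocount of 1 CPM, with no test, in Python 3.11.15. Sums of 1 TH number deviated together over 791 genes (Pearson r across genes 0.18 to 0.39 for 9 pairs of the same number, -0.28 to 0.02 for 18 pairs of different numbers), so the numbers pair the sums. Genes compared had a mean of at least 20 CPM and a read in at least 10% of cells of 1 group. No doublet caller was run, since each well was sorted singly as far as the labels tell. Named besides the 7 genes were those most like each, the neighbours within 200 kb, and from each list the highest, the lowest and any gene past the size rule. A few further list genes were named after their values were seen. The ratio calculation was tested on simulated data. Alternatives were other scalings (DESeq2 1.42.0 size factors, library size), pseudocounts, cell filters, thinning, weights, and leaving out a TH number, outer wells or the top cell. Another 2 genes of the list of other homeostatic genes were left out and are not reported here. The members and lists were chosen with earlier results of these data known.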

Additional observations from a re-analysis of the deposited data

How the results depend on the processing

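Each of the 7 genes kept its sign in plasma high against plasma none in 16 of 16 alternatives, with Tmem119 between -0.50 and -0.36. With a replicate block for the TH number in the edgeR fit, the median of the 7 genes was -0.18 for plasma high against plasma none, -0.09 for plasma low against plasma none and -0.07 for plasma high against plasma low, and no direction or call of a member changed in plasma high against plasma none. Slc2a5 moved to -0.26 with cells weighted equally and to -0.25 with cells thinned. Leaving out the top cell of each sum gave a median of -0.19 for plasma low against plasma none (-0.20 for plasma high against plasma none), and for plasma high against plasma low a median of 0.013 and a Selplg ratio of 0.016; thinning gave Selplg 0.0014 there. Leaving out 1 TH number put the median of plasma high against plasma low between -0.14 (without TH 3) and -0.048. The share of plasma none cells with an Slc2a5 read was 78.9% without thinning, 78.1% at 100000 reads and 71.4% for at least 5 reads. The size rule called 5.15% of genes in plasma high against none, 2.64% in plasma low against none and 3.28% in plasma high against low, 2.26%, 1.09% and 1.38% with a pseudocount of 10, and 19.4%, 13.01% and 14.2% at a log2 ratio of 0.5. Apart from the thresholds, the cause was not tested. Depth limits shares of cells near 100%, and with no animal named no difference between animals could be measured.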
